A study of Mus musculus with 4 samples.

Results

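Chromosome 2 of the mouse carries 289 annotated genes with a symbol made of Olfr and a number, which encode class II olfactory receptors, out of 49550 annotated genes on chromosomes 1 to 19 and X. All of the 289 were taken by symbol and chromosome, with no use of methylation values, and 88 further loci whose symbols mark them as pseudogenes were kept apart. Of the 289, the annotation types 286 as protein-coding and 3 as pseudogenes. Genes more than 1 Mb apart were placed in different clusters, which gave 3: a proximal cluster of 27 genes from Olfr338 to Olfr368 (chr2:36376778-37332732, mm10), a middle cluster of 225 genes from Olfr987 to Olfr1274 (chr2:85330967-90401674) and a distal cluster of 37 genes from Olfr1275 to Olfr1318 (chr2:111230853-112157007). Gaps of 48 Mb and 20.8 Mb without a receptor gene separate them.

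Whole-genome bisulfite sequencing compared the methylation of 60M-GS cells, cultured for about 60 months, with that of 5M-GS cells, cultured for about 5 months. Germline stem (GS) cells are cultures of spermatogonial stem cells, the testis cells that sustain sperm production. Both cultures were wild type, came from testis of Green mice (the transgenic line C57BL/6 Tg14(act-EGFP)OsbY01, bred on a DBA/2 background), and were grown with FGF2 and GDNF. Each age had 2 replicates, which were pooled in 1 table, so replicates cannot be compared with each other. Every test or 95% interval below compares the calls of 2 pooled tables and covers counting error only. In all, 60M-GS had 471693518 calls over 19341319 CpGs (median 22 calls) and 5M-GS had 468121185 over 19371838 CpGs (median 21). Male germ line imprints matched the label: the stretch 2000 to 4000 bp upstream of H19 was methylated at 91.0% in 60M-GS against 93.5% in 5M-GS, and the 5' ends of Snrpn, Mest, Peg3 and Nnat were at or below 0.817% in 60M-GS against 1.90% in 5M-GS. The 5' ends of the germ cell genes Ddx4 and Dazl were at 0.674% and 2.66% in 60M-GS, against 2.36% and 3.10% in 5M-GS, but that of the somatic marker Vim was low as well (0.563% in 60M-GS, 0.984% in 5M-GS), so these ends do not separate germ cells from other cells.

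Olfactory receptors are G protein-coupled receptors that bind odorants at the cilia of olfactory sensory neurons. Each such neuron transcribes a single receptor allele while the other receptor genes stay in heterochromatin, and the genes lie in large clusters, mostly with an intronless coding sequence and few CpGs. Testis also transcribes some receptor genes, and receptors on sperm have been studied in chemotaxis, but no RNA was measured here.

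The genes are short and CpG-poor: the median annotated length was 945 bp, and 228 (78.9%) had a length that is a multiple of 3, as a coding sequence without UTRs would have. RefSeq (GRCm38.p6) gave a start and strand for 242 of the 289, and in 182 (75.2%) of these the first bases at the annotated start were the start codon ATG, against 6.31% of all 26794 promoters in the same table. For most of these genes the annotated start is therefore the start of the coding sequence and not a mapped transcription start. The windows from 250 bp before to 50 bp after these starts held a median of 1 CpG, against 7 over all promoters, and 87 (35.95%) held none, against 5.64% of all promoters. The following are the windows of 3 genes that gained methylation near their start, each on the + strand with CpGs in capitals. They show how few CpGs lie at the annotated start, also at genes with the largest gains near it.
Olfr152 (chr2:87782286-87782585): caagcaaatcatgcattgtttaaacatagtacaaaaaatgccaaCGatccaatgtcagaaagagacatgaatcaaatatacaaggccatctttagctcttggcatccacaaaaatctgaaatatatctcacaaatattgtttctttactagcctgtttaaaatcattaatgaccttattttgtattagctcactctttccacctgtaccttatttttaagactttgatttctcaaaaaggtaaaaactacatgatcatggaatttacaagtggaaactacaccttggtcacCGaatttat
Olfr368 (chr2:37331499-37331798): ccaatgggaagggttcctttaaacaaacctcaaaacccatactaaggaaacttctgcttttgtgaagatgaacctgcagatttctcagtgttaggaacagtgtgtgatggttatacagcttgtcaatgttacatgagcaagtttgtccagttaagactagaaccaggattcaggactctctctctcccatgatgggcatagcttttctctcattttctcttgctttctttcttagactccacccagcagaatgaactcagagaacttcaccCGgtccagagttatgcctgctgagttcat
Olfr1153 (chr2:87895927-87896226): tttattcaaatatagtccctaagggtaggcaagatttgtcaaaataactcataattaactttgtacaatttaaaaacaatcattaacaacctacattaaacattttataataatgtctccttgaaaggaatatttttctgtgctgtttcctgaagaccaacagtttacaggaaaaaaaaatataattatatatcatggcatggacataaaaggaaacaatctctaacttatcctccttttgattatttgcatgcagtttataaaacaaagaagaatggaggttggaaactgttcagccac

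In the Olfr152 window the CpG at base 45 lacked the 5 calls per table required here, and the CpG at base 292 was methylated at 87.5% in 60M-GS (8 calls) and 64.3% in 5M-GS (14 calls). The single CpG of the Olfr368 window, at base 272, was at 100% in 60M-GS (29 calls) and 42.1% in 5M-GS (38 calls). Of the 2 motifs searched on both strands, the homeodomain-type motif TAATTA was in 60 of the 242 windows (24.8%; 5.27% of all promoters), Olfr1153 among them, and the palindromic motif of the Ebf (Olf1) factors was in 0 of 242 (0.903% of all promoters). These matches describe the letters of the windows only.

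Methylation of the receptor genes was high in both cultures and a little higher in 60M-GS. Levels are the percent of methylated calls over a gene and 2 kb on each side, using CpGs that had 5 or more calls in each table. Of the 289 genes, 287 could be tested; the other 2, Olfr1506 and Olfr1565, had no CpG with enough calls. The median level was 86.6% in 60M-GS against 82.7% in 5M-GS, and the median difference was 2.45 points, against 0.277 points over all 47815 genes tested. The level was higher in 60M-GS for 198 (69.0%) of the 287 genes and lower for 89, beside 54.2% higher among all genes. The middle 50% of the differences ran from -0.721 to 7.46 points, so for most receptor genes the change was small beside their level.

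Larger gains were few among the genes themselves. Called at an adjusted p under 0.05 and a difference of at least 20 points (two-sided Fisher's exact test, Benjamini-Hochberg over all genes), 14 of 287 (4.88%) gained methylation and 0 lost it. That share is near the 4.35 percent of all genes called as gained (2.31 percent of protein-coding genes; 0.0502 percent of all genes were called as lost). Differences of at least 10 points at any p were found in 48 genes (16.7%; 9.92 percent of all genes), all of them higher in 60M-GS. At an adjusted p under 0.05 with no limit on size, 66 genes (23.0%; 28.1 percent of all genes) were higher and 1, Olfr1016, was lower (13.2 percent of all genes). A receptor gene window held a median of 14 CpGs with 281 calls in 60M-GS and 274 in 5M-GS, against 119 CpGs over all genes. Calls per CpG in 60M-GS relative to 5M-GS were 0.933 to 1.165 in the genes called. Calls on the same read are not independent, and when each window's calls were divided by its number of CpGs before the test, 0 of the 287 genes passed.

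**Figure D1:**
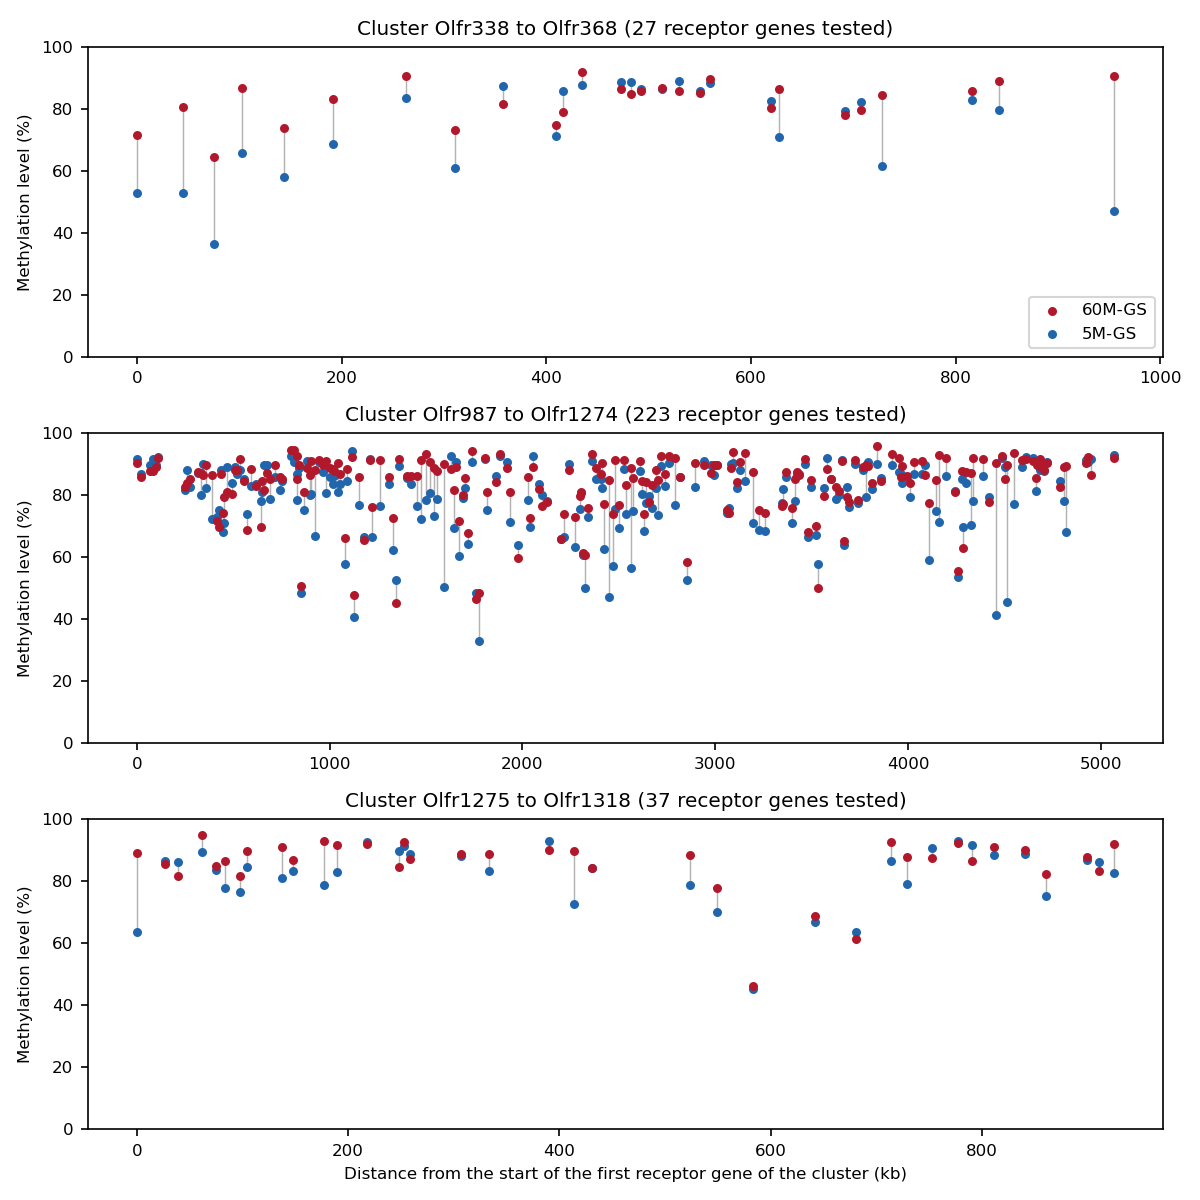
Methylation level (percent, vertical axis) of each tested receptor gene with 2 kb flanks in 60M-GS (red) and 5M-GS (blue) against distance from the first gene of its cluster (kb), with a grey line joining both values. Long lines mark the genes with large gains, which in the Olfr338 to Olfr368 cluster lie towards both ends, while most pairs lie close together above 60%.

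The genes below were picked by their difference, so a lower level in 5M-GS follows in part from that choice. Levels in 60M-GS were near 90% at Olfr1254, Olfr48, Olfr368 and Olfr1098, but 64.4% at Olfr340. The largest difference was at Olfr1254, with 90.2% in 60M-GS against 41.2% in 5M-GS (difference 49.1 points, 95% interval 44.2 to 53.5, adjusted p = 1.53e-73 by Fisher's exact test). Olfr48 had 89.9% in 60M-GS against 45.5% in 5M-GS, and Olfr368, the last gene of the proximal cluster, had 90.7% in 60M-GS against 47.1% in 5M-GS over 42 CpGs (interval of the difference 40.2 to 46.9). Olfr1098 followed with 90.2% in 60M-GS against 50.3% in 5M-GS. Olfr152 had 84.9% in 60M-GS against 47.0% in 5M-GS, and Olfr1153 had 88.7% in 60M-GS against 56.5% in 5M-GS. Near the beginning of the proximal cluster 3 neighbouring genes gained: Olfr339 (80.8% in 60M-GS, 52.8% in 5M-GS), Olfr340 (64.4% in 60M-GS, 36.4% in 5M-GS) and Olfr341 (86.6% in 60M-GS, 65.6% in 5M-GS). The other genes called were Olfr362, Olfr1049, Olfr1242, Olfr1270 and Olfr1275, with gains of 21.4 to 25.5 points. Just under the threshold of 20 points lay Olfr141 (19.04 points) and Olfr338 (18.5 points).

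Where in its window a gene gained differed from gene to gene. In Olfr368 the gain was in the coding stretch: the 27 CpGs inside the gene were at 91.1% in 60M-GS against 35.8% in 5M-GS, and 26 of them were higher by at least 30 points, against 1 of 15 in the flanks. Olfr48 showed the same form, with 89.4% in 60M-GS against 31.9% in 5M-GS over 17 CpGs inside the gene, while its flanks were at 91.7% in 60M-GS against 97.3% in 5M-GS. Olfr152 (92.8% in 60M-GS, 45.5% in 5M-GS) and Olfr1098 (91.2% in 60M-GS, 47.3% in 5M-GS) also changed inside the gene. Their flanks rose as well, at Olfr1098 (86.9% in 60M-GS, 61.6% in 5M-GS, 5 CpGs) more than at Olfr152 (64.7% in 60M-GS, 50.4% in 5M-GS). Olfr1254 gained mainly in its flanks: its 6 CpGs inside the gene were at 90.1% in 60M-GS against 76.7% in 5M-GS, whereas its 19 flanking CpGs were at 90.3% in 60M-GS against 29.5% in 5M-GS. Most of those lie beyond the 3' end of the gene, and without flanks Olfr1254 (13.4 points) is no longer called. In Olfr1275 the flanks were at 91.5% in 60M-GS against 49.0% in 5M-GS, but the gene itself at 85.2% in 60M-GS against 93.6% in 5M-GS, so its difference turns to -8.33 points without flanks. Olfr340 likewise drops to 8.68 points without flanks, and Olfr338 and Olfr1318 are called only without them (49.96 and 21.5 points).

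**Figure D2:**
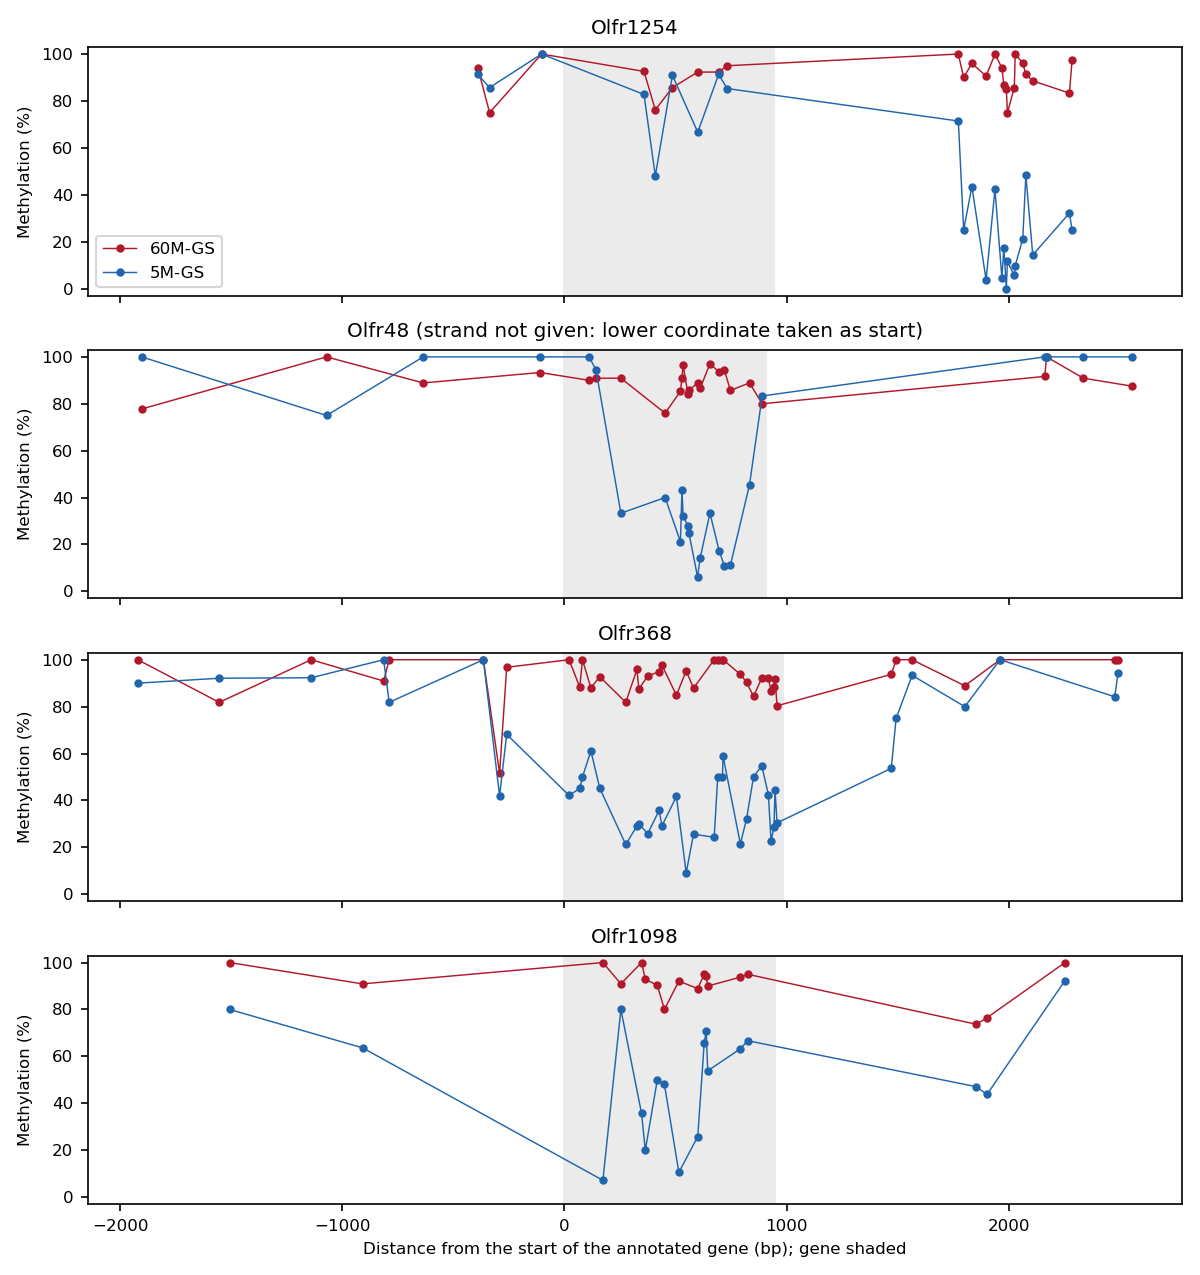
Methylation (percent, vertical axis) of single CpGs in 60M-GS (red) and 5M-GS (blue) in and around Olfr1254, Olfr48, Olfr368 and Olfr1098, against distance from the start of the gene (bp; for Olfr48, of unknown strand, from its lower coordinate), with the gene shaded. In Olfr48, Olfr368 and Olfr1098 the blue points drop inside the shaded gene, whereas in Olfr1254 they drop outside it. In Olfr1098 some blue points outside the gene are low as well.

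Losses were small, and their size depended on the settings. The largest in the middle cluster were at Olfr1029 (69.6% in 60M-GS, 78.1% in 5M-GS, adjusted p = 0.0603 by Fisher's exact test), Olfr1016 (81.0% in 60M-GS, 89.0% in 5M-GS, adjusted p = 0.0289) and Olfr1031 (81.6% in 60M-GS, 89.6% in 5M-GS, adjusted p = 0.0614). In the proximal cluster Olfr50, Olfr347 and Olfr351 differed by -6.98, -5.75 and -3.85 points, and in the distal cluster Olfr1288, Olfr1311 and Olfr1277 by -5.14, -5.04 and -4.53 points. None of these 6 passed the test. Over the alternatives tried, the difference ranged from -8.54 to -0.667 points at Olfr1029, from -7.95 to -1.66 points at Olfr1031 and from -10.1 to -4.45 points at Olfr1016. Olfr347 ranged from -10.2 to 0.172 points, and Olfr50 and Olfr351 also changed sign, with 5 kb flanks. The losses of the distal cluster kept their sign. They ranged from -6.52 to -1.73 points at Olfr1288, from -5.04 to -1.56 at Olfr1311 and from -4.58 to -0.674 at Olfr1277. The levels themselves spanned a wide range: the lowest in 60M-GS was Olfr1086 (45.2%, against 52.6% in 5M-GS), whose difference of -7.35 points turned to 5.24 points at 10 calls per CpG, and the lowest in 5M-GS was Olfr259 (48.5% in 60M-GS, 33.0% in 5M-GS), whose difference was 15.6 points, or 30.4 points without CpGs that have no methylated call in either table. The highest in 60M-GS was Olfr1225 (95.9%, against 89.9% in 5M-GS) and the highest in 5M-GS was Olfr1065 (92.4% in 60M-GS, 94.4% in 5M-GS).

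Of the genes with a known odorant, Olfr73, the eugenol receptor, had 84.8% in 60M-GS against 73.5% in 5M-GS (difference 11.3 points, adjusted p = 0.00131 by Fisher's exact test, under the 20-point threshold). Olfr1019, which responds to the fox odour compound trimethylthiazoline, had 88.1% in 60M-GS against 89.1% in 5M-GS (interval of the difference -5.12 to 3.39 points).

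The clusters as wholes, spacers included, gained methylation, and the proximal one most. Over all its CpGs the proximal cluster was at 80.6% in 60M-GS against 67.9% in 5M-GS, a difference of 12.6 points (12.2 to 13.0). The middle cluster was at 82.7% in 60M-GS against 76.1% in 5M-GS, a difference of 6.59 points (6.39 to 6.80), and the distal cluster at 83.0% in 60M-GS against 77.2% in 5M-GS, a difference of 5.85 points (5.39 to 6.30). The proximal cluster thus gained 6.03 points more than the middle one (5.56 to 6.50) and 6.78 points more than the distal one (6.16 to 7.39), while the middle and distal clusters differed by 0.747 points (0.249 to 1.25). Over CpGs within 2 kb of a gene alone, the order of these last 2 turned, with gains of 11.6, 4.94 and 5.55 points in the proximal, middle and distal clusters. The comparison with the rest of chromosome 2 turned on a few CpGs of extreme depth. Outside the clusters, 1024 CpGs (0.0802%) had over 74 calls in a table and held 46.3% of the calls in 60M-GS and 49.0% in 5M-GS, at levels of 86.3% in 60M-GS against 48.5% in 5M-GS. With the limit of 74 calls applied to both sides, the clusters gained 7.68 points and the rest of the chromosome 0.754 points (75.2% in 60M-GS, 74.5% in 5M-GS), an excess of 6.92 points for the clusters (6.75 to 7.10; 6.88 with the limit outside the clusters alone). Over all CpGs the rest of the chromosome gained 18.6 points (80.3% in 60M-GS, 61.8% in 5M-GS), so the difference turned to -10.9 points (-11.1 to -10.8). Values for chromosome 2 outside the clusters below leave those 1024 CpGs out. The clusters lay closer together in 60M-GS (80.6% to 83.0%) than in 5M-GS (67.9% to 77.2%). At the level of single genes the order depended on the measure. By calls, 5 of 27 genes (18.5%) were called in the proximal cluster, 8 of 223 (3.59%) in the middle one and 1 of 37 (2.70%) in the distal one, with median differences of 3.69, 2.45 and 1.78 points. Calls summed over gene windows gave gains of 11.6, 5.13 and 5.59 points in the same clusters, and the share of genes that were higher in 60M-GS was lowest in the proximal cluster (63.0%, against 69.5% and 70.3%). The number of calls per CpG in 60M-GS relative to 5M-GS was 1.026 in the proximal and middle clusters and 1.035 in the distal one. It was 1.033 for the rest of chromosome 2 with the limit of 74 calls, and 1.008 for the tables as wholes without that limit.

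The long middle cluster did not change evenly along its 5 Mb. In successive 500 kb segments from Olfr987 on, the differences were 1.21, 4.05, 6.14, 10.7, 6.03, 7.07, 9.34, 3.17, 11.5 and 7.24 points. The first segment, with 21 genes, gained least (0.651 to 1.77), and the segment that begins 4000 kb from Olfr987 gained most (10.8 to 12.1). In the proximal cluster both parts gained, by 14.9 points in the first 500 kb and 10.1 points in the rest, but the 50 kb from 450 kb to 500 kb after Olfr338, with 3 genes, were at 83.2% in 60M-GS against 81.0% in 5M-GS.

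Cluster edges were compared over 500 kb inside and 500 kb outside the outermost genes. At the Olfr338 edge the inside was at 79.2% in 60M-GS against 64.3% in 5M-GS and the outside at 70.6% in 60M-GS against 69.3% in 5M-GS, so the gain inside exceeded that outside by 13.5 points (12.8 to 14.2). At the Olfr368 edge the excess was 8.59 points (7.87 to 9.32), at the Olfr1274 edge 6.12 points (5.42 to 6.82; 9.86 over 200 kb), at the Olfr1275 edge 3.50 points (2.67 to 4.32; 1.97 over 200 kb) and at the Olfr1318 edge 2.83 points (2.05 to 3.61). The Olfr987 edge showed no such step, with an excess of 0.372 points (-0.309 to 1.05), which was -0.184 points over 200 kb. Olfr987 itself had 90.5% in 60M-GS against 91.7% in 5M-GS.

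In bins of 50 kb the edges differed in how sharp they were. At the Olfr368 edge the last 50 kb inside were at 86.1% in 60M-GS against 69.7% in 5M-GS, and the next 50 kb outside at 69.1% in 60M-GS against 68.4% in 5M-GS. At the Olfr1274 edge the last 50 kb inside were at 90.9% in 60M-GS against 65.4% in 5M-GS over 65 CpGs, and the next 50 kb outside at 88.3% in 60M-GS against 89.7% in 5M-GS. Olfr1274 itself, the outermost gene there, had 92.0% in 60M-GS against 92.9% in 5M-GS, so this gain lay in the spacer beside it. A single tile of 1 kb, chr2:90395001-90396000, held 21 of those 65 CpGs, at 93.5% in 60M-GS against 26.3% in 5M-GS. The difference of this bin therefore rests largely on that tile. At the Olfr338 edge the gain went beyond the outermost gene: the first 50 kb outside gained 13.1 points (11.6 to 14.5), the next 50 kb 8.20 points (6.34 to 10.1) and the next 1.57 points (0.259 to 2.88). At the Olfr1275 edge the first 50 kb outside were at 88.4% in 60M-GS against 79.6% in 5M-GS, and those inside at 86.6% in 60M-GS against 79.5% in 5M-GS, so no step lay at the gene itself. Farther outside Olfr1275, the bin chr2:111080853-111130852 gained 13.4 points (11.4 to 15.4), more than any bin inside that edge. At the Olfr1318 edge the first 50 kb outside gained 6.18 points and those inside 4.83 points, and at the Olfr987 edge the first 50 kb outside gained 4.06 points while those inside differed by -0.403 points. Farther outside Olfr1318, the bin chr2:112457008-112507007 gained 9.41 points (8.20 to 10.6), also more than any bin inside that edge. Of the outermost genes, Olfr338 had 71.5% in 60M-GS against 52.9% in 5M-GS and Olfr1318 had 92.05% in 60M-GS against 82.6% in 5M-GS, both under the 20-point threshold.

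**Figure D3:**
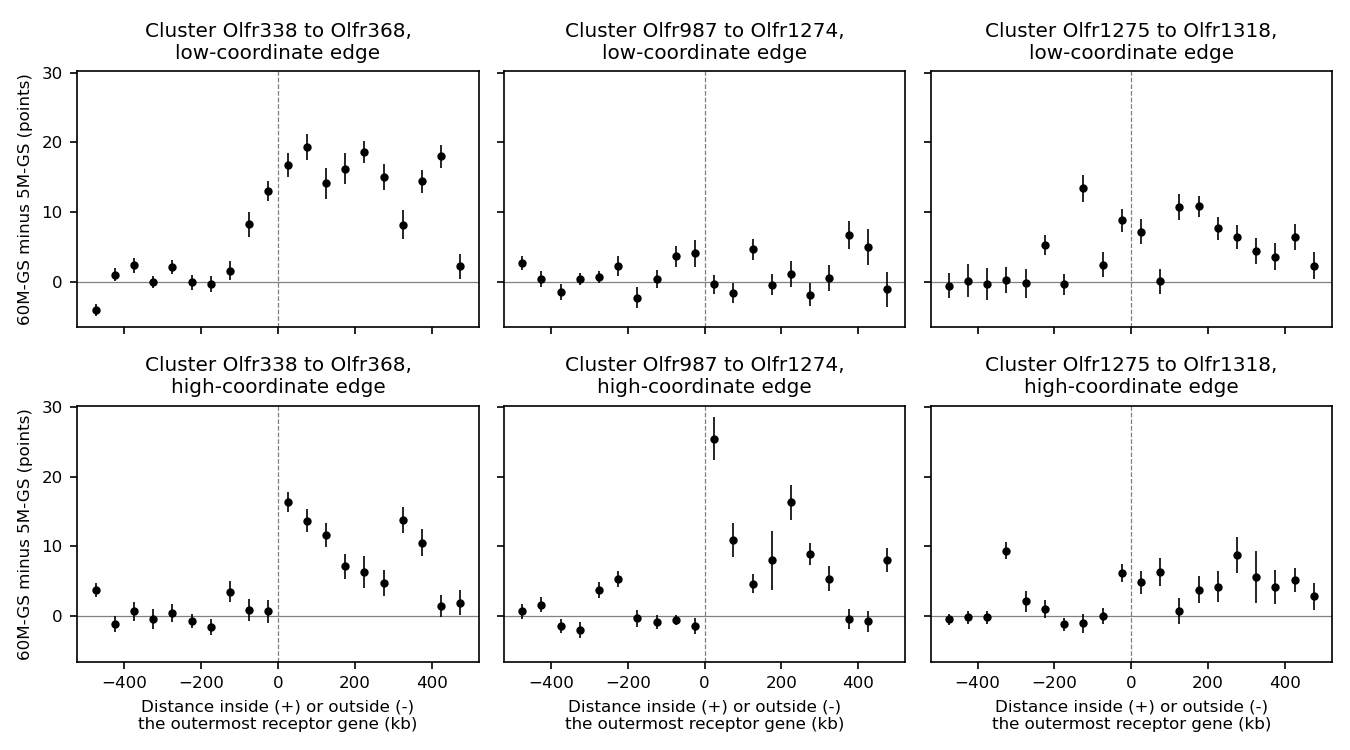
Difference in methylation level, 60M-GS minus 5M-GS (points, vertical axis, with 95% intervals from calls), in bins of 50 kb from 500 kb outside (negative) to 500 kb inside (positive) the outermost receptor gene at each of the 6 edges. Most bins outside lie near 0, with gains just outside Olfr338, Olfr987, Olfr1275 and Olfr1318. A bin farther outside Olfr1275 (13.4 points) and a bin farther outside Olfr1318 (9.41 points) gained more than any bin inside those edges. Most bins inside lie above 0 at each edge other than the low-coordinate edge at Olfr987.

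Most genes next to the clusters differed less than the clusters, with A26c3 and Chrm5 beside the distal cluster as exceptions. Their spans can hold many more CpGs than a receptor gene window (379 at Ptgs1, against a median of 14), so a local gain weighs less in them. Ptgs1, a cyclooxygenase gene 118 kb before Olfr338, had 75.2% in 60M-GS against 73.9% in 5M-GS, and Pdcl, a phosducin-like gene 17.3 kb after Olfr368, had 46.5% in 60M-GS against 47.8% in 5M-GS. Lrrc55 (73.6% in 60M-GS, a difference of -0.379 points from 5M-GS) and Ptprj, a receptor tyrosine phosphatase gene 28.1 kb after Olfr1274 (79.5% in 60M-GS, 79.9% in 5M-GS), flank the middle cluster. Only 1.25 kb from Olfr1275, A26c3 had 87.8% in 60M-GS against 81.6% in 5M-GS. Its gain of 6.22 points was above the 5.85 points of the distal cluster as a whole. The end of A26c3 overlaps the flank of Olfr1275, so CpGs there count for both genes and for the cluster. Beyond Olfr1318, Gm52523 had 35.1% in 60M-GS against 35.2% in 5M-GS. Chrm5, 321.7 kb from Olfr1318, had 75.4% in 60M-GS against 68.35% in 5M-GS. Its gain of 7.09 points was the largest of the genes within 500 kb outside an edge. Of the 48 protein-coding genes within 500 kb outside an edge, 0 were called, beside 2.31 percent of all protein-coding genes called as gained. Their median difference was -0.0698 points and 45 lay within 5 points. Inside the middle cluster 3 genes that are no receptors also had similar levels in both cultures: Fads2b, named as a fatty acid desaturase, had 79.7% in 60M-GS against 80.1% in 5M-GS, Pramel7 83.9% in 60M-GS against 82.8% in 5M-GS, and Pramel6 86.9% in 60M-GS against 86.7% in 5M-GS.

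The gain lay between the genes as well as in them. CpGs inside a receptor gene gained 7.04 points (86.5% in 60M-GS, 79.5% in 5M-GS), those 1 to 2000 bp away 4.60 points, and those 10 to 20 kb away 9.61 points. In the middle cluster CpGs more than 2 kb from a gene gained 2.15 points more than those nearer (1.68 to 2.63), while in the proximal cluster (1.16 points, -0.031 to 2.35) and the distal one (0.375 points, -0.667 to 1.42) the intervals include 0. Along the 242 genes of known strand, the gain was smallest in the 1000 bp before the start (82.8% in 60M-GS, 80.4% in 5M-GS, 2.38 points, 1.23 to 3.52), and larger inside the gene (7.18 points, 6.66 to 7.70) and in the 1000 bp after its end (7.78 points).

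Local CpG density went with the size of the gain. CpGs with no other CpG within 250 bp gained 3.50 points over the 3 clusters, those with 1 or 2 neighbours 4.77 points, those with 3 or 4 neighbours 7.61 points, those with 5 to 9 neighbours 15.2 points (84.5% in 60M-GS, 69.2% in 5M-GS) and those with 10 or more 19.1 points (76.3% in 60M-GS, 57.2% in 5M-GS). Outside the clusters on chromosome 2 the same classes differed by -0.227, -0.456, -0.560, 0.284 and 4.02 points. The clusters' excess was 14.9 points (14.4 to 15.4) at 5 to 9 neighbours and 15.0 points (14.3 to 15.8) at 10 or more. The proximal cluster gained most in every class, up to 24.4 points at 10 or more neighbours. The distal cluster gained 6.49 points in that class, only 2.47 points (0.729 to 4.20) more than the rest of the chromosome.

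**Figure D4:**
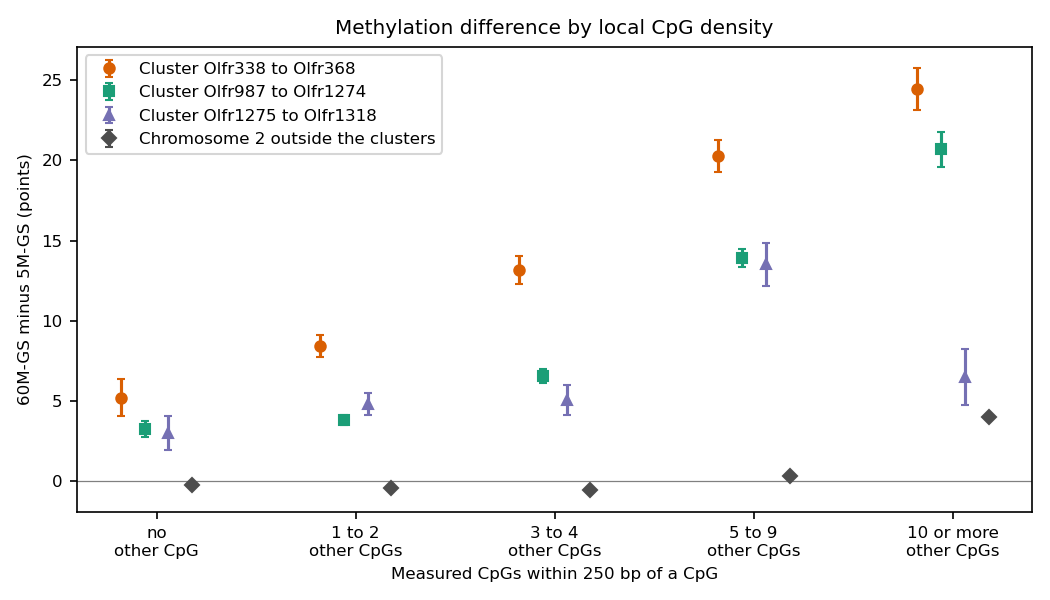
Difference in methylation, 60M-GS minus 5M-GS (points, vertical axis, with 95% intervals from calls), by number of other CpGs within 250 bp, for the 3 clusters and for chromosome 2 outside them. The gain climbs with density in the clusters, with the exception of the densest class of the Olfr1275 to Olfr1318 cluster (6.49 points), while chromosome 2 outside them stays near 0 below its densest class (4.02 points).

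Between genes the relation was weak apart from the most CpG-rich ones. Over the 287 genes the difference and the CpGs per kb of the window had a Spearman rho of 0.186 and a Pearson r of 0.325, as a description of points that share 2 libraries. Among the genes of at most 1200 bp, the 56 with 1 to 3 measured CpGs inside the gene were at 87.0% in 60M-GS against 84.9% in 5M-GS, summed over the gene alone, a gain of 2.11 points (0.208 to 4.02). The 143 genes with 4 to 7 CpGs gained 3.48 points (2.71 to 4.25) and the 40 genes with 8 to 11 CpGs 5.24 points (4.18 to 6.31). The 11 genes with 12 or more CpGs were at 87.9% in 60M-GS against 55.4% in 5M-GS, a gain of 32.5 points (30.7 to 34.3). The median difference per gene was 1.91, 1.98, 3.71 and 22.0 points in the 4 classes, with little between the first 2. All 11 were higher in 60M-GS: Olfr362, Olfr368, Olfr1009, Olfr1045, Olfr1057, Olfr1098, Olfr152, Olfr1231, Olfr1240, Olfr48 and Olfr1264. In 60M-GS the 4 classes of genes lay within 86.8% to 89.0%.

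Single CpGs of intermediate methylation became rarer. CpGs between 30% and 70% made up 7.94% of the CpGs of the clusters in 60M-GS against 19.5% in 5M-GS, against 6.72% in 60M-GS against 6.93% in 5M-GS outside the clusters on chromosome 2. In the proximal cluster the share was 15.4% in 60M-GS against 34.5% in 5M-GS, in the middle one 6.26% in 60M-GS against 16.0% in 5M-GS, and in the distal one 6.76% in 60M-GS against 18.0% in 5M-GS. CpGs at 90% or more made up 48.57% in 60M-GS against 36.04% in 5M-GS. A level of at least 80% in 60M-GS beside at most 10% in 5M-GS was found at 58 CpGs, 40 of them in the middle cluster, and the reverse at 0. These 58 are 0.276% of the CpGs of the clusters, against 0.236% (3015) outside them on chromosome 2, a share near that background, with 0.462% in the proximal, 0.277% in the middle and 0.0350% in the distal cluster. The reverse, at 0 of the 20991 CpGs of the clusters, was rare outside them on chromosome 2 as well (86 of 1275679). These levels are means over cells, and a change in each cell cannot be told apart from a change in the mix of cells. A second kind of CpG had no methylated call in either table: 617 (4.27%) in the middle cluster and 78 (2.73%) in the distal one, but 1 (0.0272%) in the proximal one. Outside the clusters on chromosome 2 the share was 9.45% over all CpGs and 2.06% over CpGs with at most 4 neighbours within 250 bp, among which it was 4.47% in the middle, 2.67% in the distal and 0% in the proximal cluster. Without them the clusters gained 6.75, 6.08 and 12.6 points in the same order, an alternative chosen after seeing the data.

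**Figure D5:**
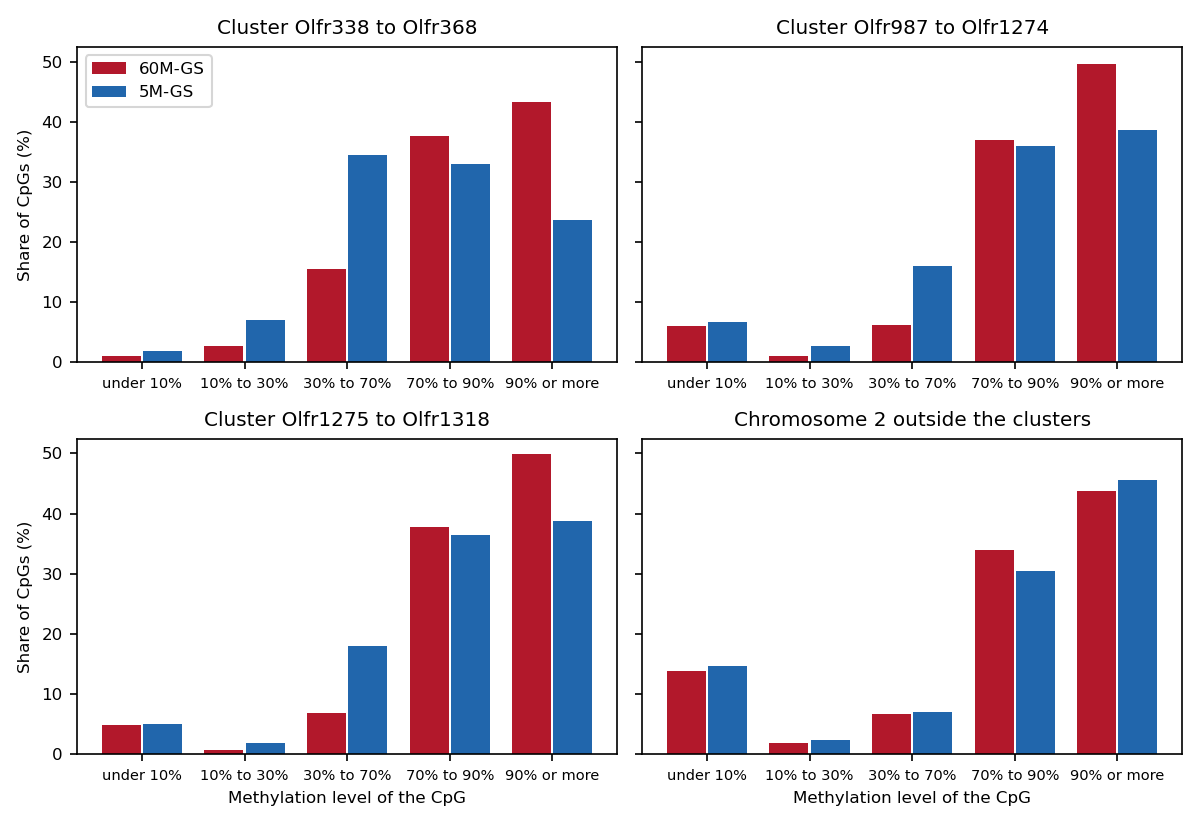
Share of CpGs (percent, vertical axis) in 5 classes of methylation level (percent, horizontal axis) in 60M-GS (red) and 5M-GS (blue), in each cluster and on chromosome 2 outside the clusters. Intermediate CpGs are fewer in 60M-GS in each cluster, most plainly in the Olfr338 to Olfr368 cluster, and outside the clusters the shares of intermediate CpGs are 6.72% in 60M-GS and 6.93% in 5M-GS.

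Windows at the annotated start, from 1000 bp before to 500 bp after it, could be tested for 156 of the 242 genes of known strand. Of these, 15 (9.62%) gained by at least 20 points with an adjusted p under 0.05 and 0 lost (4.48 percent of all such windows gained, 0.499 percent lost). Their median level was 88.7% in 60M-GS against 83.2% in 5M-GS, whereas the median over all genes was 14.2% in 60M-GS against 11.3% in 5M-GS. The largest gains were at Olfr152 (95.2% in 60M-GS, 38.8% in 5M-GS, 6 CpGs), Olfr368 (90.3% in 60M-GS, 42.8% in 5M-GS, 16 CpGs), Olfr1098 (89.8% in 60M-GS, 44.4% in 5M-GS, 7 CpGs) and Olfr1153 (78.0% in 60M-GS, 42.2% in 5M-GS, 4 CpGs). In the 3 genes whose sequences are printed, most of these CpGs lie outside the 300 bases around the start. With windows of 250 bp on each side 3 genes were called, and with calls divided by the number of CpGs 2. The share over all genes is not given for these settings.

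At the finer scale of 1 kb tiles, gains were called in tiles with a receptor gene and in tiles without one. The median difference over the tiles of the clusters was 4.74 points, against -0.452 points over all tiles of the genome. Of 2253 tiles of 1 kb in the clusters with at least 4 CpGs, 304 (13.5%) gained and 3 lost, against 3.48 percent gained and 0.475 percent lost over all tiles of the genome. Dividing calls by the number of CpGs left 16 gained tiles (0.710%), and 5 kb tiles gave 99 (7.53%). The share over the genome is not given for these settings, so these shares cannot be set beside 3.48 percent. The share gained was 27.5% in the proximal cluster (113 of 411), 10.4% in the middle one (160 of 1544) and 10.4% in the distal one (31 of 298). Tiles that overlap a receptor gene gained in 33 of 324 cases (10.2%) and the others in 271 of 1929 (14.0%). The largest gain was at chr2:89560001-89561000, 13712 bp from Olfr1245, with 87.6% in 60M-GS against 11.1% in 5M-GS over 10 CpGs. Next came chr2:88579001-88580000, 11806 bp from Olfr1189, with 76.7% in 60M-GS against 3.62% in 5M-GS over 17 CpGs. A tile 3149 bp from Olfr3 in the proximal cluster, chr2:36808001-36809000, had 91.4% in 60M-GS against 25.1% in 5M-GS over 21 CpGs. The tiles within Olfr48 (89.4% in 60M-GS, 31.9% in 5M-GS) and Olfr368 (90.6% in 60M-GS, 33.5% in 5M-GS) were among the 8 largest gains. The 3 losses lay 3048 bp from Olfr350 (69.6% in 60M-GS, 96.6% in 5M-GS), 18130 bp from Olfr342 (46.9% in 60M-GS, 71.4% in 5M-GS) and 454 bp from Olfr1277 (68.3% in 60M-GS, 89.5% in 5M-GS).

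In windows of 50 kb, 34 of 134 (25.4%) gained at least 10 points, against 7.3 percent of all such windows: 11 of 18 in the proximal cluster, 21 of 98 in the middle one and 2 of 18 in the distal one. The window with the largest gain, chr2:90350001-90400000, holds no receptor gene and was at 91.0% in 60M-GS against 60.2% in 5M-GS. It had only 57 CpGs, and 21 of them lay in the tile chr2:90395001-90396000 (93.5% in 60M-GS, 26.3% in 5M-GS). Its gain therefore rests largely on that tile. The next, chr2:88550001-88600000, holds Olfr1188 and Olfr1189 and was at 74.6% in 60M-GS against 48.6% in 5M-GS.

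Receptor genes elsewhere differed in how much they gained. Summed over gene windows, the chromosome 2 genes were at 84.6% in 60M-GS against 78.6% in 5M-GS, a gain of 5.96 points (5.61 to 6.31), which is 5.19 points (4.84 to 5.54) more than that of other genes on chromosome 2. The 133 receptor genes on chromosome 9 gained 10.0 points, so the difference of chromosome 2 minus chromosome 9 was -4.09 points (-4.68 to -3.50), and 19 (14.3%) of them were called. The 237 tested on chromosome 7 gained 5.16 points, 0.792 points less than chromosome 2 (0.347 to 1.24), but 16 (6.75%) of them were called. On all other chromosomes together 71 of 825 (8.61%) were called, so the share called was lower on chromosome 2 (4.88%). The receptor pseudogenes interleaved on chromosome 2 had levels near those of the genes, with a median of 84.7% in 60M-GS against 80.7% in 5M-GS. Of 82 tested, 6 (7.32%) were called as gained, beside 4.88% of the genes and 4.35 percent of all genes.

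Of 29 other genes of receptor choice and odorant signalling, 1 was called over its gene span, beside 4.35 percent of all genes. Their median difference was 0.781 points. Rtp1, which carries receptors to the cell surface, was that gene (88.0% in 60M-GS, 64.2% in 5M-GS), and 0 were called as lost. At an adjusted p under 0.05 of any size 14 were higher and 5 lower (28.1 percent and 13.2 percent of all genes). In their 5' windows 2 of 25 gained, beside 4.48 percent of all such windows: Rtp2, the partner of Rtp1 (89.5% in 60M-GS, 33.3% in 5M-GS), and Ano2, a chloride channel of olfactory cilia (65.9% in 60M-GS, 31.9% in 5M-GS). The 5' windows of 17 of the 25 were below 10% in both cultures.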

How the data were processed

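Libraries were prepared from bisulfite-treated DNA by adaptor tagging after conversion (PBAT), per the labels' protocols. The submitters' processing notes name Bismark 0.10.0 and mm10. For each CpG the authors deposited a methylated and an unmethylated call count, with no normalization, and their percent, which was not used for levels. The 2 replicates of an age were pooled by the authors before deposit. Read filters and deduplication were not given in any source used here.

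From the counts, the level of a region was its methylated calls over all its calls, on CpGs that had 5 or more calls in each table, and regions needed 4 such CpGs. Gene spans (with 2 kb flanks), 1 kb tiles and 5' windows were tested over the whole of chromosomes 1 to 19 and X with Fisher's exact test (two-sided) and Benjamini-Hochberg adjustment, and called at an adjusted p under 0.05 and at least 20 points. Clusters, edges, density classes and 50 kb windows (at least 50 CpGs) have no test. Intervals are 95% Wilson intervals combined by Newcombe's method, and the interval of a difference between 2 differences combines their bounds. Values for chromosome 2 outside the clusters leave out CpGs with over 74 calls unless stated, and that comparison without the limit and with it on both sides was added after seeing the data. Inside windows of both edges overlap by 44 kb in the proximal and 73.8 kb in the distal cluster, and 16 genes share part of their window with another. Gene coordinates and promoter sequences came from RefSeq (GRCm38.p6, the build mm10 is based on). Tools were Python 3.11.15, numpy 2.4.6, pandas 2.3.3, scipy 1.17.1, numba 0.67.0 and matplotlib 3.10.9, and the test was tried on simulated data.

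Genes named are the outermost gene at each edge, the 3 largest gains and losses of each cluster, the highest and lowest levels, the 4 largest differences at the 5' window, 2 receptors with a known ligand, up to 4 called signalling genes and the nearest other protein-coding gene at each edge. Others complete a count or were chosen after their values were seen. The genes and lists were chosen with earlier results of these data known. Alternatives changed the minimum calls and CpGs, flanks, tile, window and edge sizes, the threshold, the way of averaging and the independence of calls.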

Additional observations from a re-analysis of the deposited data

How the results depend on the processing

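The main limit is that each culture age is 1 pooled table: tests show differences between tables, not between ages, and no replicate could be left out. No paired analysis was possible because the replicates of an age share 1 table without a replicate column. Dividing calls by the number of CpGs, which leaves few calls per window, left 0 gained receptor genes, 0 signalling genes, 16 gained tiles (0.710%), 0 lost tiles and 2 gained 5' windows. With a threshold of 10 points, 46 receptor genes and 3 signalling genes were called. At any p, 48 receptor genes (16.7%) were higher by at least 10 points, against 9.92 percent of all genes. Shares over all genes, tiles or 5' windows are not given for the alternatives, so their counts have no background beside them. The median difference of receptor genes was 3.14 points without flanks and 2.95 points with 5 kb flanks, which left 0 signalling genes, and Olfr1275 turned to -8.33 points without flanks. Over CpGs within 2 kb of a gene, the proximal cluster gained 11.6 points the middle one 4.94 and the distal one 5.55, and by the mean over CpGs the middle one gained 6.27. With edge windows of 200 kb, the excess inside was 11.7 points at Olfr368, 9.86 at Olfr1274, 1.97 at Olfr1275 and -0.184 at Olfr987, where it changed sign with an interval that includes 0 at either size. The excess of the clusters over the rest of chromosome 2 turned to -10.9 points over all CpGs, where 1024 CpGs of extreme depth enter. At 10 calls per CpG 1 tile lost, and with 5 kb tiles 99 (7.53%) gained and 0 lost. With windows of 250 bp on each side of the start, 3 were gained. Without CpGs that have no methylated call in either table, an alternative added after seeing the data, 2 signalling genes were called and Olfr259 differed by 30.4 points. Small differences that passed no test changed sign for Olfr1086 (5.24 points at 10 calls per CpG, 4.45 by the mean over CpGs, 0.375 without the CpGs just named), Olfr351 (1.28 without flanks, 0.673 with 5 kb flanks), Olfr987 (2.996 and 0.0373), Olfr1019 (0.146 and 0.569), Olfr50 (1.51 with 5 kb flanks), and, by the mean over CpGs, Olfr347 (0.172) and Olfr1274 (1.72). Of the summary results under alternatives, 88 stayed on the same side of their limits, which for counts says nothing of which genes, while 8 moved, 2 reversed, 3 rose past and 12 fell below their limits. Splitting at gaps of 0.5 Mb gave the same 3 clusters. The cause of the other changes was not tested.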
